A study of Mus musculus with 9 samples.

Results

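The miR-30 family was followed as 5 mature miRNAs, miR-30a-5p, miR-30b-5p, miR-30c-5p, miR-30d-5p and miR-30e-5p, out of 1052 mature miRNAs in the table. The members were taken by name, and the choice was made with earlier results of these data known. Where a name had several rows, the row with the most counts was kept. All 5 passed the filter on low counts and belong to the 188 miRNAs tested.

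The data are small RNA sequencing counts of 9 libraries from sorted cells of the embryonic lateral cortex, taken from C57BL/6 mice on embryonic day 14.5. There are 3 populations of 3 libraries each. Cells were sorted on the native fluorescence of their reporters, called R and G in the sample titles. Proliferating progenitors were negative for both. Differentiating progenitors carried R without G. Newborn neurons carried G. The gate of the proliferating progenitors is defined by the absence of both signals. The promoters behind the reporters and the number of embryos per library are not given in the sources used here, so p-values measure the spread between these libraries, which may be technical. The comparisons are the first step (differentiating against proliferating progenitors), the second step (newborn neurons against differentiating progenitors) and the whole lineage (newborn neurons against proliferating progenitors). They share libraries and are not independent of each other.

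A mature miRNA guides the Argonaute protein to messenger RNAs that pair with its seed, bases 2 to 8 from the 5′ end, and so lowers the output of those messengers. miRNAs with the same seed form a family, because they can in principle act on the same targets. The miR-30 family is conserved among vertebrates, is abundant in many tissues, the brain included, and is made from several genes, some of which lie close together. miR-30a and miR-30c-2 form one such pair, miR-30b and miR-30d another, and miR-30c-1 and miR-30e the third.

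The RefSeq table of mouse miRNAs (GRCm38.p6) matched 3 of the 5 members by name. Their mature sequences are shown because the members differ by few bases, which bears on how reads can be assigned. Capitals mark the seed, and miR-384-5p and miR-30f are added as the other miRNAs named as relatives.
miR-30a-5p: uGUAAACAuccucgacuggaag
miR-30e-5p: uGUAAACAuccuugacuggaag
miR-30c-5p: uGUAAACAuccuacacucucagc
miR-384-5p: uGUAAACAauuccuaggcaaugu
miR-30f: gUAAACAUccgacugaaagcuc
The matched members have 1 seed, GUAAACA, which miR-384-5p shares. In miR-30f these letters start at base 1, so that its own bases 2 to 8 read UAAACAU.

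Positions are counted from 1 at the 5′ end, with the base of the first-named miRNA first. miR-30a-5p and miR-30e-5p differ by 1 substitution, C13U. miR-30a-5p and miR-30c-5p differ at 5 of the 22 positions compared, and the first difference is C13A. The difference from miR-384-5p begins right after the seed, at U9A, and 10 of 22 positions differ from miR-30a-5p. How the authors assigned reads with a mismatch is not given in the sources used here, so a part of the reads of miR-30a-5p and miR-30e-5p could have been counted for the other.

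miR-30a-5p lies at chr1:23272274-23272295 on the plus strand, and the miR-30c-2 copy of miR-30c-5p lies at chr1:23291714-23291736 on the same strand. Their hairpins are separated by 19361 bases. In the GENCODE annotation the miR-30c-2 hairpin sits in an exon of the long noncoding RNA gene Gm27028, while no gene other than its own overlaps the miR-30a hairpin. The miR-30c-1 copy lies at chr4:120769584-120769606 on the minus strand, and miR-30e-5p lies at chr4:120772660-120772681 on that strand. Their hairpins are 2983 bases apart. Both lie within Nfyc, which encodes a subunit of the CCAAT-binding factor NF-Y, on its strand and outside its annotated exons, that is, in introns.

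miR-30c-5p comes from 2 hairpins whose 5p arms are identical, as their sequences show, with the mature part in capitals.
miR-30c-1 hairpin: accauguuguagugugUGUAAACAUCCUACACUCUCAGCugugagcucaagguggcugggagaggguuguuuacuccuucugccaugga
miR-30c-2 hairpin: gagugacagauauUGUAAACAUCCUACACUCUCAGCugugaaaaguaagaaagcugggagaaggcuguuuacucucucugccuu
The table lists miR-30c-5p once for each hairpin, and both rows hold nearly the same counts, with a gap of at most 3 in any library. Its reads therefore cannot be divided between the locus shared with miR-30a and the locus shared with miR-30e. No row is named for a 3p arm of the miR-30 precursors, so these arms could not be analysed.

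Totals of mature miRNA counts per library ran from 821155 to 3856484, and the TMM factors, which scale libraries on the bulk of their miRNAs, from 0.903 to 1.22. The neuronal miR-124-5p had 69, 81 and 29 counts in the proliferating, 249, 284 and 135 counts in the differentiating and 1230, 918 and 655 counts in the neuron libraries, an order that follows the labels. The neural list (4 of 6 names in the table), which is nearly all miR-9-5p, summed to 665638 to 742441, 625165 to 674221 and 515904 to 669681 CPM (TMM-scaled counts per 1000000) in this order. The summed lists of markers of other cells were highest in proliferating progenitors, although 1 haematopoietic marker, miR-146a-5p, had its highest mean in differentiating progenitors (7.10, 14.8 and 1.12 CPM along the lineage). Of the erythroid list 2 of 3 names were in the table, and their summed level was 260 to 354 CPM there, 0.881 to 2.86 in differentiating progenitors and 0 to 2.31 in neurons, where miR-144-5p was at 0 in all libraries. The mural list (5 of 8 names in the table) summed to 437 to 579, 39.99 to 43.4 and 17.7 to 36.3 CPM, the haematopoietic list (5 of 7) to 47.1 to 60.3, 20.7 to 37.0 and 8.44 to 9.01 CPM, and the endothelial list (2 of 3) to 18.4 to 26.2, 11.4 to 12.3 and 5.28 to 12.3 CPM. miR-214-5p and miR-126b-5p were at 0 in every library, and miR-142a-5p was at 0 in every neuron library. The part of these cells in the values below was not tested. In such bulk samples fewer cells of a type and less RNA per cell cannot be told apart.

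The miR-30 family was abundant in all 3 populations, and with TMM scaling no member was called between any of them. The deposited counts cover mostly 5p arms: of 1211 rows with an accession, 925 have a 5p name and 114 a 3p name. The shares, ranks and totals given here refer to these rows and not to all miRNAs of the cells. Of all mature miRNA counts in them, the 5 members together took 3.46%, 3.32% and 3.17% in the 3 libraries of proliferating progenitors. The corresponding shares were 3.59%, 3.68% and 3.08% for differentiating progenitors, then 3.79%, 3.73% and 3.70% for neurons. The 95% Wilson intervals of these shares reach at most 0.0379 percentage points to either side and cover only the counting error of reads within a library. PCR copies are not independent molecules, so the intervals may be too narrow even for that. The neuron libraries were the 3 highest, and differentiating progenitor replicate 3 was the lowest of all 9.

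**Figure D1:**
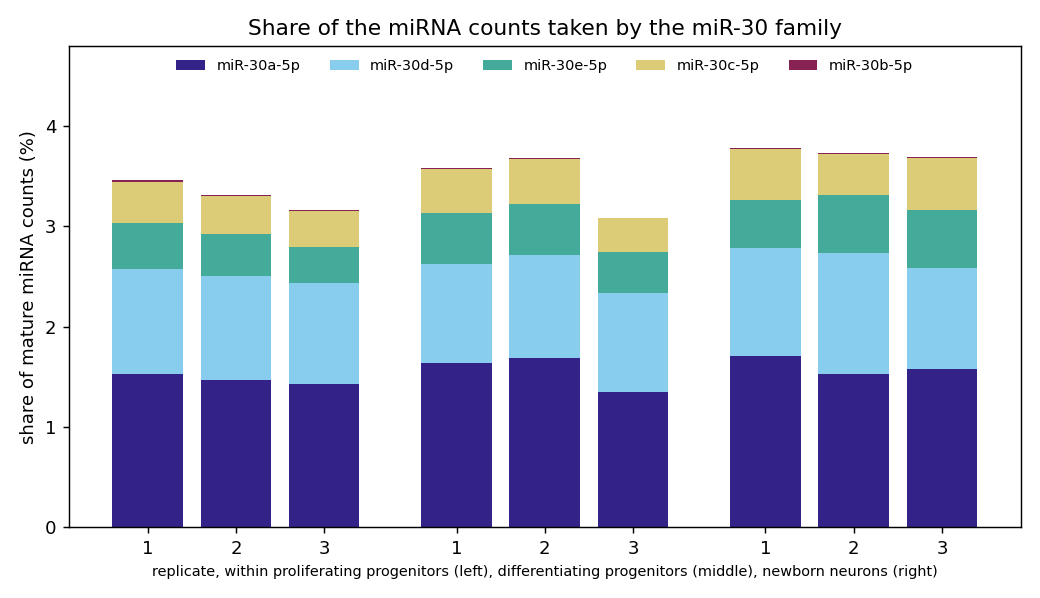
Share of all mature miRNA counts (vertical axis, percent) taken by each miR-30 member, stacked, in each of the 9 libraries (horizontal axis, replicates within population). The bars reach 3.08% to 3.79%, and miR-30a-5p and miR-30d-5p make up most of every bar.

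On the TMM-scaled level the order of the members was nearly the same in every library. miR-30a-5p was the highest member in 9 of 9 libraries and miR-30d-5p the next in 9 of 9. miR-30e-5p and miR-30c-5p followed at similar levels: miR-30e-5p was the higher of them in 7 libraries and miR-30c-5p in 2, so their order is not beyond the spread of the libraries. miR-30b-5p was the lowest in 9 of 9. Since a read covers a whole mature miRNA of 22 or 23 bases, CPM needs no division by length, but ligation in library preparation is known to favour some sequences, and a ratio between members is a ratio of reads rather than of molecules.

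**Figure D2:**
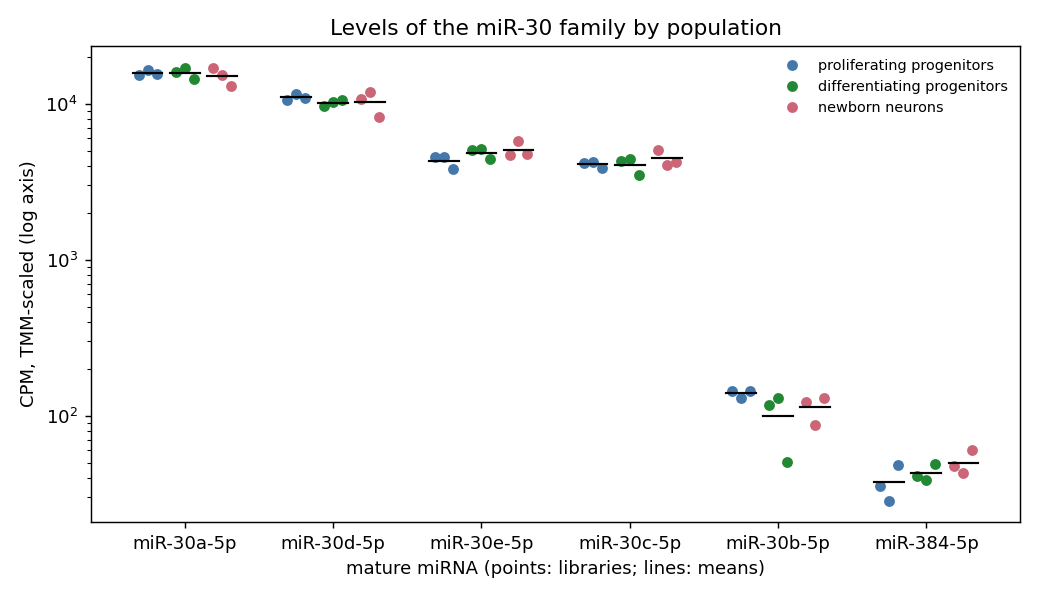
Level of each miR-30 member and of miR-384-5p (vertical axis, TMM-scaled CPM, log axis) in the 9 libraries, with points for libraries, colours for populations and lines for means. The differences between populations within a member are small beside those between members, except that miR-30e-5p and miR-30c-5p lie at similar levels. miR-30b-5p lies far below the other members, with its lowest point, 50.5 CPM, in differentiating progenitor replicate 3.

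mmu-miR-30a-5p, the most abundant member, ranked 8 by mean CPM among all 1052 mature miRNAs and between 7 and 11 in single libraries. It had 15313, 16315 and 15350 CPM in proliferating progenitors, 16039, 16804 and 14292 CPM in differentiating progenitors and 16996, 15168 and 12934 CPM in newborn neurons. The 3 ranges overlapped, and both the highest and the lowest of the 9 values were in neurons. The means were 15659 ± 568, 15712 ± 1287 and 15033 ± 2034 CPM (SD, n = 3 each). Its log2 change between the progenitor populations was 0.0048 (SE 0.13, edgeR adjusted p = 0.982), -0.06 at the second (SE 0.13, edgeR adjusted p = 0.712) and -0.06 over the whole lineage (SE 0.13, edgeR adjusted p = 0.704). The 95% interval of the last, 0.798-fold to 1.16-fold, leaves room for changes of that size.

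mmu-miR-30c-5p, which shares 1 locus with miR-30a and the other with miR-30e, ranked 21. It had 4186, 4233 and 3889 CPM in proliferating progenitors, 4260, 4422 and 3498 CPM in differentiating progenitors and 5054, 4067 and 4239 CPM in neurons. These values overlapped across populations, with neuron replicate 1 the highest. The log2 change over the whole lineage was 0.12 (SE 0.13, edgeR adjusted p = 0.487), with an interval of 0.891-fold to 1.32-fold. At the first and second steps it was -0.02 and 0.13 (edgeR adjusted p = 0.952 and 0.448). Neuron replicates 1 and 2 set much of these values: without replicate 1 the change was 0.019 over the whole lineage and 0.020 at the second step, and without replicate 2 it was 0.23 and 0.27, with no call in either case.

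mmu-miR-30e-5p, the member in the Nfyc locus that has only 1 gene, ranked 19 and lay closest to a difference. It had 4532, 4564 and 3825 CPM in proliferating progenitors, 5056, 5085 and 4422 CPM in differentiating progenitors and 4716, 5754 and 4754 CPM in neurons. Every neuron library was above every library of proliferating progenitors, though by as little as 4716 against 4564 CPM, while 64.4% of the tested miRNAs also did not overlap between these populations. The log2 change over the whole lineage was 0.24 (SE 0.13, edgeR adjusted p = 0.141), with an interval of 0.970-fold to 1.43-fold, and it missed the threshold of 0.05. At the first step it was 0.17 (edgeR adjusted p = 0.459) and at the second 0.06 (edgeR adjusted p = 0.716). The summed lists of erythroid, mural, haematopoietic and endothelial markers were lower in every neuron library than in every proliferating progenitor library, though not every single marker was. The part of such cells in the value of miR-30e-5p was not tested.

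The call for miR-30e-5p depended on the scaling. With libraries scaled by their total counts, its log2 change over the whole lineage was 0.42 (SE 0.14, edgeR adjusted p = 0.0176), which passed the threshold, as did 54.8% of the 188 miRNAs under that scaling. When miR-9-5p, the miRNA that holds most of the reads, was left out of the totals, it was 0.34 (SE 0.13, edgeR adjusted p = 0.0375), where 56.4% passed. In the test of all populations at once it passed with total counts (edgeR adjusted p = 0.0489), as did 54.3% of the 188. RLE and upper-quartile factors gave 0.27 and 0.26 (edgeR adjusted p = 0.125 and 0.107). The direction over the whole lineage was the same under all 5 scalings and the call was made under 2 of them.

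mmu-miR-30d-5p, the next most abundant member, ranked 14. It had 10569, 11471 and 10861 CPM in proliferating progenitors, 9707, 10269 and 10466 CPM in differentiating progenitors and 10682, 11911 and 8252 CPM in neurons. All libraries of differentiating progenitors were below all of the proliferating progenitors, as the libraries of 32.4% of the tested miRNAs also did not overlap at this step, and the neurons spanned both. Between the progenitor populations its log2 change was -0.11 (SE 0.14, edgeR adjusted p = 0.615), with an interval from -0.40 to 0.17, and with upper-quartile factors it was 0.09, so that no direction is given. Over the whole lineage it was -0.09 (SE 0.14, edgeR adjusted p = 0.596) and at the second step 0.02 (edgeR adjusted p = 0.913), the first with an interval of 0.769-fold to 1.14-fold.

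mmu-miR-30b-5p, the partner of miR-30d at its locus, was far less abundant, at rank 76. It had 190, 127 and 110 counts in the proliferating, 165, 148 and 71 counts in the differentiating and 479, 166 and 169 counts in the neuron libraries, or 144, 129.8 and 144, then 118, 130.4 and 50.5, then 123, 87.6 and 129.9 CPM. Differentiating progenitor replicate 3 stood apart at the lowest level, although miR-30d-5p was at its highest of that population in the same library. Between the progenitor populations its log2 change was -0.49 (SE 0.28, edgeR adjusted p = 0.26), the largest in size of any member, and without that replicate it was -0.18 (edgeR adjusted p = 0.72). At the second step it was 0.20 (SE 0.27, edgeR adjusted p = 0.594), and -0.06 without that replicate (edgeR adjusted p = 0.833). Over the whole lineage it was -0.30 (SE 0.27, edgeR adjusted p = 0.376), and -0.09 without neuron replicate 2 (edgeR adjusted p = 0.821). Its interval, 0.548-fold to 1.21-fold, is wider than those of the abundant members.

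Counted together, with edgeR and TMM scaling 0 of 5 members were called at each step and over the whole lineage. In that fit 0 of 5 had an unadjusted p under 0.05, where 26.6%, 52.1% and 60.6% of all tested miRNAs did (62.2% in the test of all populations at once). Under some other scalings miR-30e-5p, miR-30c-5p and miR-30a-5p did have an unadjusted edgeR p under 0.05. DESeq2 likewise called 0 of 5 in each comparison, beside 18.6%, 42.0% and 53.2% of all tested miRNAs, and gave 0 of 5 an unadjusted p below 0.05. Libraries of the populations compared did not overlap for 1, 0 and 1 of the 5 members in the 3 comparisons, beside 32.4%, 49.5% and 64.4% of all tested miRNAs. Across all 188 tested miRNAs edgeR called 16.0% at the first step, 46.3% at the second and 56.4% over the whole lineage, and a test of all 3 populations at once called 58.5% of the 188 and 0 of the 5 members (smallest edgeR adjusted p = 0.288, for miR-30e-5p). Without proliferating progenitor replicate 1 the count of all miRNAs called at the first step was 18 in place of 30, and that of the members stayed at 0. The median size of the members' log2 change, sign aside, was 0.11, 0.06 and 0.12 in the 3 comparisons, beside 0.32, 0.53 and 0.68 over all tested miRNAs. Part of the tested miRNAs are rare and noisy. Among the 36 tested miRNAs with a mean of at least 1000 CPM, which include 4 members, the medians were 0.10, 0.21 and 0.24, and 5.56%, 38.9% and 33.3% were called. The members' median at the first step therefore lay near that of abundant miRNAs in general.

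**Figure D3:**
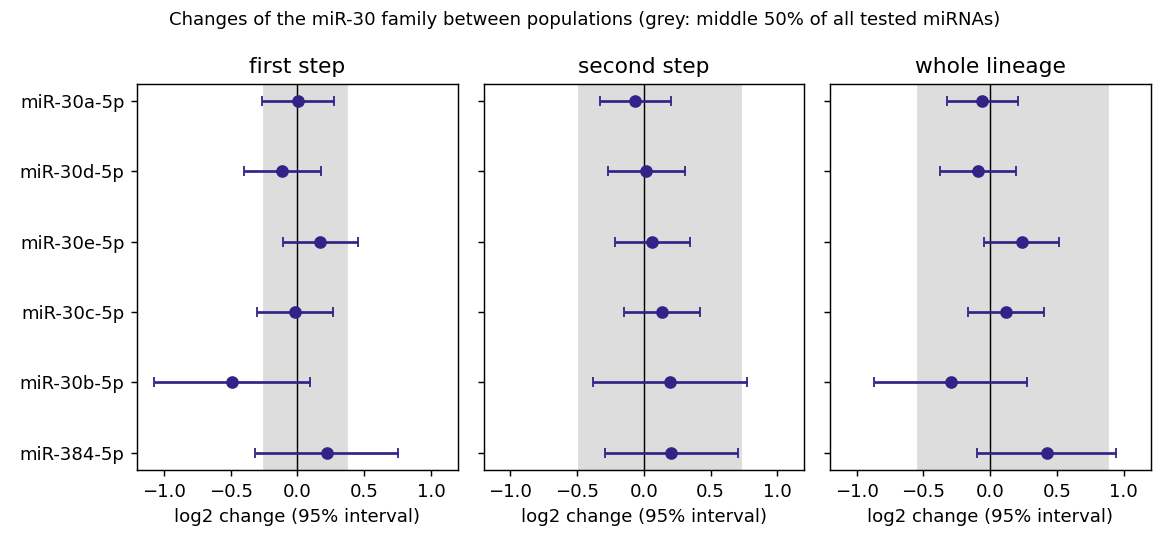
Log2 change of each member and of miR-384-5p (points) with its 95% interval (bars) at the first step, the second step and over the whole lineage, from edgeR. The grey band spans the middle 50% of the changes of all 188 tested miRNAs, and every interval shown includes 0.

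Summed over the 5 members, the TMM-scaled level was nearly the same in each population. It was 34744, 36712 and 34069 CPM in proliferating progenitors, 35180, 36710 and 32729 CPM in differentiating progenitors and 37571, 36988 and 30310 CPM in newborn neurons. The means were 35175 ± 1373, 34873 ± 2009 and 34957 ± 4034 CPM (SD, n = 3 each), and the ranges overlapped. The mean log2 level differed by -0.013 at the first step and by -0.0017 at the second, less than the pooled SD between replicates, 0.07 and 0.14. The neurons included both the highest and the lowest library. Without neuron replicate 3 the difference was 0.13 at the second step and 0.09 over the whole lineage, and without neuron replicate 1 it was -0.07 in both.

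The neuron libraries were much closer to each other before TMM scaling. Scaled by total counts, the sum was 37856, 37308 and 36956 CPM in them, with an SD of 453 CPM, against 4034 CPM after TMM scaling. Neuron replicate 3 had the largest TMM factor, 1.22, which lowered its sum to 30310 CPM. By total counts all 3 neuron libraries lay above all progenitor libraries of both kinds, though by as little as 36956 against 36829 CPM in differentiating progenitor replicate 2. Under that scaling 46.8% of the tested miRNAs did not overlap at the second step and 59.0% over the whole lineage. The mean of the sum in neurons was 0.17 higher on the log2 scale than in proliferating progenitors. The same difference was -0.015 with TMM, 0.0085 with RLE factors, 0.0078 with upper-quartile factors and 0.09 with total counts without miR-9-5p. Total counts moved the median change of all tested miRNAs over the whole lineage by 0.18, from -0.05 to 0.13. With upper-quartile factors the sum was 0.18 higher at the first step and 0.18 lower at the second, without overlap, and the medians of all tested miRNAs shifted by 0.20 and -0.19. The share of all tested miRNAs without overlap was not counted with these factors. No direction is therefore given for the family sum.

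**Figure D4:**
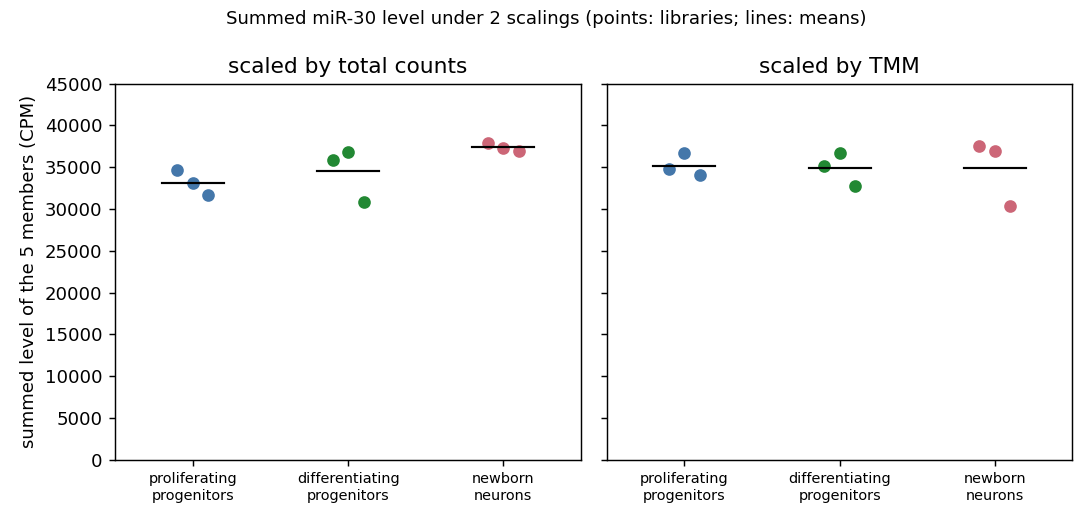
Summed level of the 5 members (vertical axis, CPM) in the 9 libraries, scaled by total counts on the left and by TMM on the right, with points for libraries and lines for means. The neurons sit between 36956 and 37856 CPM on the left and between 30310 and 37571 CPM on the right.

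Grouped by locus, miR-30a-5p with miR-30c-5p summed to 19762 ± 693, 19772 ± 1777 and 19487 ± 2448 CPM (SD, n = 3 each) along the lineage. miR-30b-5p with miR-30d-5p, which is nearly all miR-30d-5p, summed to 11106 ± 452, 10247 ± 370 and 10395 ± 1843 CPM (SD, n = 3 each). Its libraries of differentiating progenitors all lay below those of proliferating progenitors, where 32.4% of all tested miRNAs also did not overlap. With total counts the libraries overlapped, and with upper-quartile factors the difference was 0.08 in place of -0.12, so no direction is given for this sum. miR-30c-5p with miR-30e-5p summed to 8410 ± 604, 8915 ± 867 and 9529 ± 464 CPM (SD, n = 3 each). The last was 0.18 higher in neurons than in proliferating progenitors on the log2 scale, with no overlap between their libraries, and 0.37 higher by total counts, again without overlap. Over the whole lineage 64.4% of all tested miRNAs did not overlap with TMM and 59.0% with total counts. With RLE factors it was 0.21 higher and the libraries overlapped. miR-30c-5p enters 2 of these sums, because its reads cannot be divided between its loci.

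Grouped by the known likeness of their 3′ parts instead, miR-30a-5p, miR-30d-5p and miR-30e-5p summed to 30933 ± 1241, 30713 ± 1491 and 30389 ± 3859 CPM (SD, n = 3 each). miR-30b-5p and miR-30c-5p summed to 4242 ± 182, 4160 ± 536 and 4567 ± 539 CPM (SD, n = 3 each). With TMM the ranges of the populations overlapped for both sums in all 3 comparisons. The first sum did not overlap over the whole lineage with total counts (log2 difference 0.16) or at either step with upper-quartile factors (0.19 and -0.20). The second did not overlap over the whole lineage without miR-9-5p in the totals (0.21) or at the first step with upper-quartile factors (0.16). With total counts 59.0% of all tested miRNAs also did not overlap over the whole lineage. Upper-quartile factors shifted the medians of all tested miRNAs by 0.20 at the first step and -0.19 at the second. The share without overlap was not counted with these factors or without miR-9-5p in the totals. No direction is given for either sum. The first sum does not depend on how reads were divided among its own members.

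Shares within the family do not depend on the scaling. miR-30a-5p held 44.5% ± 0.496, 45.0% ± 1.17 and 43.0% ± 2.13 of the family's counts (SD, n = 3 each) along the lineage. miR-30d-5p held 31.2% ± 0.732, 29.2% ± 2.43 and 29.3% ± 2.60 (SD, n = 3 each). miR-30e-5p held 12.2% ± 0.924, 13.9% ± 0.434 and 14.6% ± 1.77 (SD, n = 3 each). Its share was 11.2% to 13.0% in proliferating and 13.5% to 14.4% in differentiating progenitors, without overlap, and 12.6% to 15.7% in neurons, which overlapped both. That share was not tested, and at the first step the TMM-scaled levels of 32.4% of all tested miRNAs also did not overlap. miR-30c-5p held 11.7% ± 0.338, 11.6% ± 0.802 and 12.8% ± 1.60 (SD, n = 3 each). miR-30b-5p never held more than 0.428% in a library.

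Ratios of members within a library do not depend on the scaling. They were compared for the 3 locus pairs in the 3 comparisons by two-sided exact permutation tests, 9 in all, where the smallest p that 3 libraries on each side allow is 0.1. The ratio of miR-30a-5p to miR-30c-5p counts was 3.66, 3.85 and 3.95 in the proliferating, 3.77, 3.80 and 4.09 in the differentiating and 3.36, 3.73 and 3.05 in the neuron libraries. All neuron libraries were below all differentiating progenitors, with a log2 difference of -0.20 (exact permutation p = 0.1, adjusted 0.45). The ratio of miR-30c-5p to miR-30e-5p was 0.924, 0.927 and 1.02 in proliferating and 0.843, 0.870 and 0.791 in differentiating progenitors, again without overlap (log2 difference -0.20, exact permutation p = 0.1, adjusted 0.45). In neurons it was 1.07, 0.707 and 0.892, which spans both. The TMM-scaled levels of 49.5% of all tested miRNAs also did not overlap at the second step, and those of 32.4% at the first. No ratio passed the threshold after adjustment, which this design could not have reached.

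miR-30b-5p and miR-30d-5p, which share a locus, were read in very unequal amounts. Counts of miR-30d-5p were 63.5 to 207 times those of miR-30b-5p in the 9 libraries. The ratio was 73.4, 88.4 and 75.4 in the proliferating, 82.4, 78.8 and 207 in the differentiating and 86.7, 136 and 63.5 in the neuron libraries. Differentiating progenitor replicate 3 and neuron replicate 2 stood above the other 7 libraries. The log2 ratio of miR-30b-5p to miR-30d-5p fell within the spread of the libraries in all 3 comparisons (exact permutation p between 0.4 and 0.8, adjusted 0.787 to 0.8), and without differentiating progenitor replicate 3 its difference at the first step was -0.03 in place of -0.49.

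**Figure D5:**
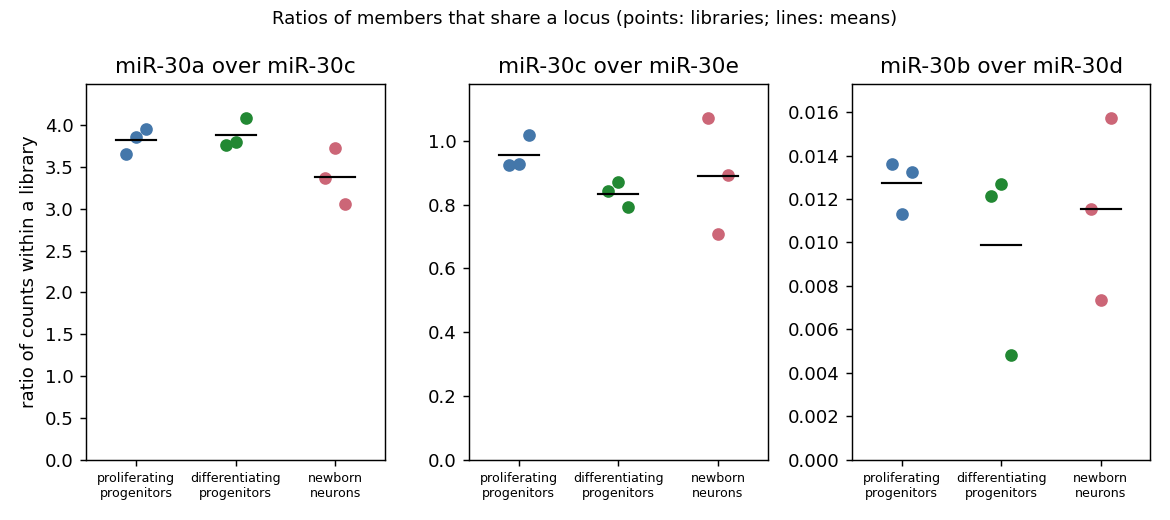
Ratio of the counts of 2 members within each library (vertical axes, each from 0) for miR-30a over miR-30c, miR-30c over miR-30e and miR-30b over miR-30d, by population, with points for libraries and lines for means. The miR-30b over miR-30d ratio is lowest, 0.0048, in differentiating progenitor replicate 3.

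miR-384-5p, which shares the seed but is encoded on the X chromosome (chrX:105344332-105344354, minus strand), was rare, at rank 108. It had 47, 28 and 37 counts in the proliferating, 58, 44 and 69 counts in the differentiating and 184, 82 and 78 counts in the neuron libraries, or 37.6 ± 10.05, 43.1 ± 5.39 and 50.2 ± 8.69 CPM (SD, n = 3 each). The populations overlapped between proliferating progenitors and neurons. Its log2 change over the whole lineage was 0.42 (SE 0.25, edgeR adjusted p = 0.154), with an interval of 0.936-fold to 1.92-fold. Without proliferating progenitor replicate 2 it was 0.26 and without replicate 3 it was 0.62 (edgeR adjusted p = 0.457 and 0.0627). miR-30f, whose hairpin lies opposite that of miR-30e on the plus strand of chromosome 4, had 1 count in neuron replicate 1 and 0 in the other libraries, where a count of 0 allows up to 1.60 to 3.65 CPM.

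Other conserved families of several genes were set beside miR-30 by their counts. Over the whole lineage 2 of 9 let-7 and miR-98 miRNAs were called, both lower in neurons, 1 of 2 miR-26 miRNAs, lower, and 1 of 4 miR-181 miRNAs, higher, beside 0 of 5 for miR-30 and 56.4% of all tested miRNAs. At the second step 7 of 9 let-7 and miR-98 miRNAs and 2 of 2 miR-26 miRNAs were called, all lower, with median log2 changes of -0.42 and -0.48, while 0 of 4 miR-181 and 0 of 5 miR-30 miRNAs were called, with medians of -0.02 and 0.06, beside 46.3% of all tested miRNAs. At the first step none of the 4 families had a called member with edgeR, where 3 let-7 and miR-98 miRNAs, 1 miR-181 miRNA and 0 of the others had an unadjusted p under 0.05, beside 16.0% of all tested miRNAs called and 26.6% with such an unadjusted p. let-7j, which was tested but is not in the list of 9, was also called lower at the second step and over the whole lineage. Its log2 changes were -0.45 and -0.54 (edgeR adjusted p = 0.00909 and 0.00188). The differences between families were not tested.

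The pattern of the family sum over the 9 libraries was compared with that of 77 other tested miRNAs of at least 100 CPM, by the root mean square difference of log2 CPM after each was centred on its mean. The 5 nearest were miR-340-5p (0.09), miR-450a-5p (0.10), miR-186-5p (0.10), miR-9-5p (0.12) and miR-140-5p (0.12), beside a median of 0.32 over the 77. miR-340-5p had 7511 ± 595, 7350 ± 243 and 7664 ± 769 CPM (SD, n = 3 each) along the lineage. Against the sum of which they are part, miR-30a-5p, miR-30d-5p, miR-30c-5p and miR-30e-5p gave 0.05, 0.09, 0.12 and 0.15, and miR-30b-5p gave 0.45. The libraries and their TMM factors are shared by all these values, which describe likeness and nothing more.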

How the data were processed

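The deposited values are raw read counts for each mature miRNA and precursor, with 1 column per library. They are whole numbers and were neither normalised nor pooled. Per the submitters' processing notes, bcl2fastq 1.8.2, DESeq2 and the build mm10 were used. The aligner and the counting tool are not given in the sources used here.

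Of 1433 rows, 222 without a database accession were left out. The first row, split over several fields, was read from its last 9 fields. The row with the largest total was kept per name, and names with at least 50 counts that differed by at most 2% were merged (7 groups, no miR-30 member). The test was edgeR's quasi-likelihood test (version 4.0.16, R 4.3.3) on all 9 libraries in 1 fit, after filterByExpr and TMM scaling, with Benjamini-Hochberg adjustment over 188 miRNAs and a threshold of 0.05. The filter kept 99.97% of counts. The fit was also run on simulated counts with known changes, as a check of the code. That run does not show whether changes as small as those of the members can be found. Ratios were compared with exact permutation tests in SciPy 1.17.1. DESeq2 1.42.0, other scalings, filters, row choices, a replicate block and leaving out each library were alternatives.

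Replicate numbers were not used as a pairing in the main fit, and whether they mark one is not settled. The text names the 5 members, relatives by seed, and the 5 non-members nearest in pattern. Members, lists and rules were chosen with earlier results of these data known.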

Additional observations from a re-analysis of the deposited data

How the results depend on the processing

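No member was called in any comparison when a library was left out, and the same held for every other alternative except total counts and total counts without miR-9-5p, which each called 1 member, miR-30e-5p, over the whole lineage. Total counts also called 1 member in the joint test (edgeR adjusted p = 0.0489). Of 285 alternative values of the 15 member changes, 30 had the other sign and 2 passed the threshold. With total counts the change of miR-30c-5p was 0.056 at the first step, that of miR-30a-5p 0.046 at the second and 0.12 over the whole lineage, that of miR-30d-5p 0.083 and that of the summed level 0.17 over the whole lineage. Without miR-9-5p in the totals, miR-30a-5p gave -0.067, 0.11 and 0.042 in the 3 comparisons, miR-30d-5p 0.0082 over the whole lineage, and the sum -0.091 and 0.18 at the 2 steps. Upper-quartile factors gave 0.18 for miR-30c-5p, 0.089 for miR-30d-5p and 0.18 for the sum at the first step, and -0.038, -0.17, -0.11 and -0.18 for miR-30c-5p, miR-30d-5p, miR-30e-5p and the sum at the second. The smallest row per name gave -0.023 for miR-30a-5p, and a fit of only the 2 populations 0.015 for miR-30c-5p, both at the first step. The cause of these moves was not tested.

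Leaving out single libraries gave these ranges where a sign turned. At the first step miR-30a-5p ranged from -0.035 to 0.055, miR-30c-5p from -0.069 to 0.067, the log2 ratio of miR-30a to miR-30c from -0.013 to 0.048 and the summed level from -0.043 to 0.019. At the second step miR-30a-5p ranged from -0.17 to 0.065, miR-30b-5p from -0.062 to 0.43, miR-30d-5p from -0.018 to 0.19, the ratio of miR-30b to miR-30d from -0.17 to 0.57, that of miR-30c to miR-30e from -0.071 to 0.23 and the summed level from -0.068 to 0.13. Over the whole lineage miR-30a-5p ranged from -0.15 to 0.046, miR-30d-5p from -0.16 to 0.052, the ratio of miR-30b to miR-30d from -0.46 to 0.086, that of miR-30c to miR-30e from -0.27 to 0.034 and the summed level from -0.070 to 0.092. The count of all miRNAs called at the first step, 30, ranged from 18 to 37, and was 18 without proliferating progenitor replicate 1.

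With the replicate number as a block, 0 of 5 members were called in each comparison, and 33, 88, 108 and 110 of 188 miRNAs in the first step, the second step, the whole lineage and the joint test. Deviations of same-numbered libraries from their population means had correlations of -0.0678 to 0.254, over 0.1 in 4 of 9 pairs. Those of libraries with different numbers ran from -0.256 to 0.121. These values do not settle whether the numbers mark a pairing, and the main fit did not use them as one. With 3 libraries per population the 95% intervals span up to 0.286 on the log2 scale to either side for the 4 abundant members, and more for miR-30b-5p, whose counts were as low as 71.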

Other observations

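The balance between miR-30e-5p and the 2 most abundant members was looked at after the values had been seen and was not tested. The mean ratios of these 2 members to miR-30e-5p fell along the lineage. Counts of miR-30d-5p were 2.33, 2.51 and 2.84 times those of miR-30e-5p in proliferating progenitors, 1.92, 2.02 and 2.37 times in differentiating progenitors and 2.27, 2.07 and 1.74 times in newborn neurons. All neuron libraries lay below all libraries of proliferating progenitors, and the differentiating progenitors overlapped both. Between neurons and proliferating progenitors the TMM-scaled levels of 64.4% of all tested miRNAs also did not overlap. How many ratios of other miRNAs did not overlap was not counted. Counts of miR-30a-5p were 3.66 ± 0.325, 3.24 ± 0.0662 and 2.99 ± 0.536 times those of miR-30e-5p (SD, n = 3 each), and here neuron replicate 1, at 3.604, lay among the proliferating progenitors.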
